A study of Oryza nivara and Oryza rufipogon with 42 samples.

Results

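The 100 genes described here were those whose transcript share changed least over 36 digital gene expression libraries of 2 wild rices, Oryza nivara and Oryza rufipogon. They were chosen by their values. Of the 20134 genes in the authors' table, 1298 reached 20 TPM or more in every library and are called eligible below, and the 100 eligible genes with the smallest standard deviation (SD) of the log2 value over the 36 libraries are the members. TPM here means tags per 1000000 of the library total. Digital gene expression (DGE) reads a short tag near the 3′ end of each transcript, so values were not divided by gene length.

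The libraries came from flag leaves at heading, panicles at heading and panicles at flowering, with 6 plants of each species per tissue, of which 3 were collected in 2009 and 3 in 2010. All plants were raised from seed in pots in a greenhouse, from accessions originating in India, Thailand, Nepal or Myanmar, and no group carried a treatment or a transgene. The numbers in the library titles were taken as plants. There were 17 of them, so most plants gave more than 1 tissue. In addition, 6 RNA-seq libraries, 1 per species and tissue, carried the plant numbers of DGE libraries, all collected in 2009. The RNA-seq values therefore hold no difference between years. The 3 of O. rufipogon shared 1 number, while the O. nivara heading panicle (plant 39) did not share the number of its leaf and flowering panicle (plant 40).

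O. nivara is an annual and O. rufipogon a perennial, and both are close wild relatives of cultivated rice. Genes of near-constant transcript level are used as internal references, against which other transcripts are measured by RT-qPCR. Each library reports shares of a whole rather than numbers of molecules. A flat share is therefore a statement about a gene relative to everything else in the sample, and the scaling chosen decides what flat means. No names come with the locus numbers in the files, so members are called by locus number and no function is stated for them.

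Summed counts were 1725036 to 4173433 per DGE library, with medians of 2242288.5 in 2009 and 3835948 in 2010. The tissue labels were checked with 6 leaf and 6 panicle marker loci, whose locus numbers were taken from general knowledge. The leaf list summed to 16090 to 59850 TPM in leaves, 881 to 8834 in panicles at heading and 3109 to 15900 at flowering. The panicle list summed to 10.5 to 41.1 TPM in leaves, 815 to 2610 in panicles at heading and 718 to 2451 at flowering, and all 6 of its loci were in the table. One of them, LOC_Os09g32948, was listed at 0 in at least 1 library of each tissue. Taken singly, all leaf loci but LOC_Os03g03720 overlapped between leaves and panicles. LOC_Os01g52240 ran from 105 to 3676 TPM in leaves and from 50.8 to 2522 TPM in panicles at flowering. The summed levels of both lists still separated leaves from panicles with no overlap, narrowly so for the leaf list. Since these are whole organs, fewer cells of a type and less RNA per cell cannot be told apart in any value below.

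The flattest member, LOC_Os02g56180, stayed between 42.0 and 107.5 TPM in all 36 libraries, with an SD of 0.281 on the log2 scale. In O. nivara its lowest, median and highest values were 51.0, 73.1 and 93.7 TPM in leaves. At heading they were 66.3, 69.9 and 94.4 TPM in panicles, and at flowering 67.9, 76.9 and 107.5 TPM. In O. rufipogon they were 50.5, 60.2 and 92.8 TPM for leaves, 42.0, 77.1 and 86.6 TPM at heading, and 54.6, 74.8 and 90.2 TPM at flowering. All 6 groups overlapped, and its lowest and highest values both came from panicles.

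LOC_Os03g25970, of the next smallest SD, had group medians between 46.1 TPM in O. nivara heading panicles and 62.0 TPM in O. rufipogon flowering panicles. LOC_Os08g24420 had group medians from 45.4 TPM in O. nivara heading panicles to 57.7 TPM in O. rufipogon heading panicles. LOC_Os09g39980 ran from a median of 37.9 TPM in O. rufipogon leaves to 59.4 TPM in O. rufipogon flowering panicles. In these 3 members the 6 groups again overlapped, and the species with the higher median was not the same in each tissue.

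Among the other 6 of the 10 flattest, LOC_Os03g46950 was one of the 3 lowest members, with a geometric mean of 35.7 TPM and group medians of 31.4 to 38.3 TPM. LOC_Os02g54990 was among the highest, and its values in O. nivara were 126.2, 147.4 and 183.4 TPM (lowest, median, highest) in leaves against 198.2, 233.2 and 256.2 in heading panicles. The leaf and heading panicle values of O. nivara thus did not overlap for this gene. Its O. rufipogon leaves, at 114.8, 170.4 and 232.4 TPM, did overlap with the heading panicles of that species, at 164.4, 217.5 and 311.7 TPM.

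**Figure D1:**
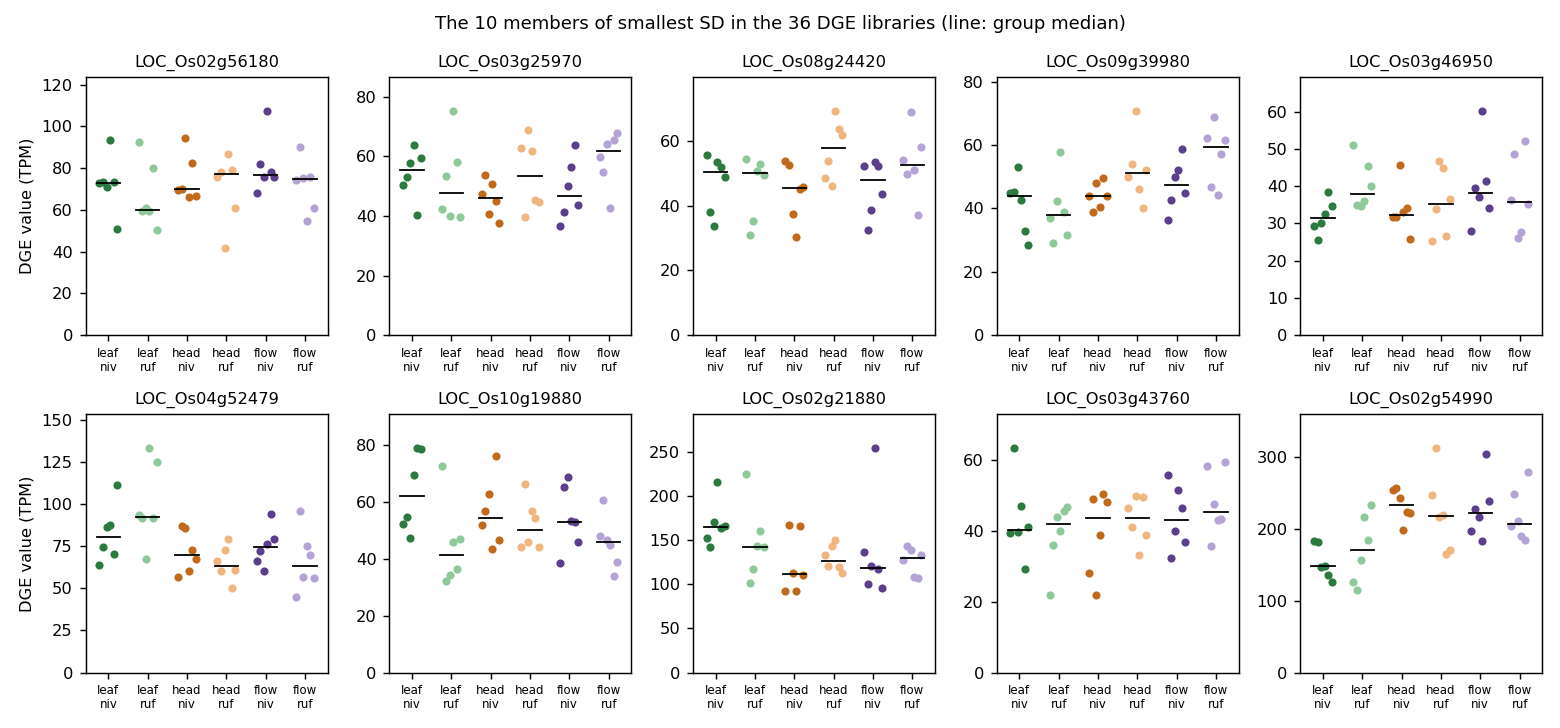
DGE value (TPM, linear axis from 0) of the 10 members of smallest SD in each library, 1 point per plant and 6 per group, with the group median as a line; niv is O. nivara, ruf is O. rufipogon, head and flow are heading and flowering panicles. The points of LOC_Os02g56180 lie between 42.0 and 107.5 TPM, and LOC_Os02g54990 is lower in O. nivara leaves than in O. nivara heading panicles in every plant.

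Over all 100 members the SD ran from 0.281 to 0.466 with a median of 0.42, beside a median of 0.829 in the other 1198 eligible genes. These values chose the members and are a description. The highest library value was 2.06 to 5.49 times the lowest, with a median of 3.39, and 81 of the 100 members stayed within 4-fold, beside 3.92% of the other eligible genes. At the limit the order was fine-grained. LOC_Os05g01710 (SD 0.46563) and LOC_Os03g53980 (0.46564) were the last inside, and LOC_Os08g37600 (0.46598) and LOC_Os11g36430 (0.46619) the first outside.

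Most members were of modest level. Their geometric means spanned 35.7 to 1169 TPM with a median of 56.5, beside 108 TPM in the other eligible genes, and 83 of the 100 lay under 100 TPM, beside 44.6% of the others. Across all 1298 eligible genes SD rose with level (Spearman's rho 0.643), and within the members it did not (rho 0.00322). Both values are shaped by the rule, since the minimum in every library admits a low gene only if its spread is small and the members were cut on SD itself; nothing is read from them. The lowest raw count of a member in any library was 39, and counting error accounted for a median of 8.15% of a member's variance, beside 1.19% in the other eligible genes.

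LOC_Os01g05490 was the highest member, at more than 4 times the level of any other. In O. nivara it had lowest, median and highest values of 590.0, 869.1 and 1208 TPM in leaves, 1003, 1175 and 1853 TPM in panicles at heading, and 1452, 1690 and 1989 TPM at flowering. In O. rufipogon these were 761.8, 871.5 and 1257 TPM, 824.0, 1101 and 1285 TPM, and 1053, 1403 and 1771 TPM in the same order. Its leaf and flowering panicle values did not overlap in O. nivara and overlapped in O. rufipogon. The following members by level were LOC_Os02g30630, LOC_Os02g54990, LOC_Os11g43970 (190.1 TPM), LOC_Os02g47870 (179.7 TPM) and LOC_Os08g09240 (176.3 TPM).

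**Figure D2:**
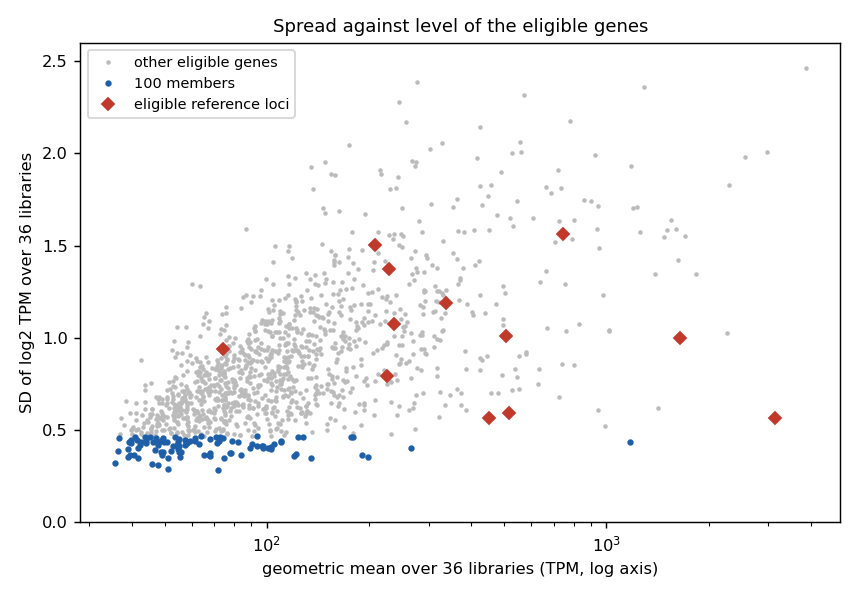
SD of log2 TPM over the 36 DGE libraries (linear axis) against the geometric mean (TPM, log axis) for each of the 1298 eligible genes; blue points are the 100 members and red diamonds the 12 eligible loci of a reference-gene list. The members fill the floor of the cloud up to an SD of 0.466, mostly under 100 TPM, and no red diamond lies among them.

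The largest single share of the members' variation lay between libraries of the same species, tissue and year. These differences within a set of 3 plants, which include counting error, held a median of 49.4% of a member's log2 variance, beside 30.4% in the other eligible genes, and were the largest share in 77 of the 100 members. Tissue held a median of 14.8% (27.9% in the others), interactions of tissue, species and year 13.6% (11.3%), year 5.76% (11.1%) and species 2.44% (1.78%). Tissue was the largest share in 17 members, year in 5, interactions of these factors in 1 and species in none of the 100. These are shares of sums of squares, not adjusted for degrees of freedom. The differences within sets have the most degrees of freedom and species and year the fewest, so the order of the shares is partly set by the design. The rule also took the smallest total spread, which leaves out genes with large tissue or year effects. The contrasts with the other eligible genes are therefore partly set by the rule, and nothing is read from them.

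On the deposited scale the 3 tissue means lay within 1.5-fold of each other in 78 of the 100 members, beside 27.9% of the other eligible genes. The rule took small spreads over these same values, so this contrast was set by it and is a description. LOC_Os02g47870 had the widest tissue range, with geometric means of 135.2 TPM in leaves, 238.1 in panicles at heading and 180.3 at flowering. LOC_Os03g53110 ran from 32.3 TPM in leaves through 47.5 in heading to 55.9 in flowering panicles. LOC_Os05g32850 ran from 53.4 TPM in leaves through 79.3 to 90.6 TPM. LOC_Os03g59470 was instead highest in leaves, at 104.4 TPM in leaves, 61.8 in heading and 75.6 in flowering panicles. On this scale the leaf was the lowest tissue in 53 of the 100 members and the highest in 23, beside 58.5% and 30.7% of the other eligible genes. After the TMM scaling described below these counts were 0 and 94, beside 29.38% and 58.35% of the other eligible genes, which shifted the same way.

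The widest species difference belonged to LOC_Os12g36670, with geometric means of 53.7 TPM in O. nivara and 38.3 TPM in O. rufipogon. Its O. nivara heading panicles (43.6, 46.4 and 56.1 TPM, lowest, median and highest) lay above all those of O. rufipogon (20.7, 37.4 and 42.5 TPM), while leaves and flowering panicles overlapped. LOC_Os01g49670 was also higher in O. nivara (44.2 against 34.3 TPM), and LOC_Os05g33710 was higher in O. rufipogon (65.5 against 50.1 TPM). The members divided evenly by species, with 50 of the 100 higher in O. nivara on average.

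By year, 71 of the 100 members were higher in 2009 on average on the deposited scale, beside 59.6% of the other eligible genes. After TMM scaling 44 of the 100 were higher in 2009, beside 51.8% of the others, so the lean to 2009 did not hold there. The widest year differences on the deposited scale were those of LOC_Os02g57710 (137.2 TPM in 2009 and 88.5 in 2010), LOC_Os01g68040 (48.8 and 32.3 TPM) and LOC_Os10g39620 (89.0 and 59.0 TPM). All 3 were higher in 2009, the year with the smaller libraries. The part of depth or of any other feature of the collection years in these values was not tested.

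On the deposited scale the members' mean in each library held 11.8% of the variance of their deviations. The rule took small spreads on this same scale, so movement shared by the members was partly limited by it. Pearson's r between 2 members over the 36 libraries had a median of 0.113 and ranged from -0.653 to 0.838, as a description of pairs that share the same libraries. The highest value was that of LOC_Os10g39620 with LOC_Os03g19500. LOC_Os02g50840 and LOC_Os02g50850, the single pair with consecutive locus numbers, had an r of 0.324. All 12 chromosomes were represented, from 2 members on chromosome 11 to 17 on chromosome 1.

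Some libraries stood apart. The mean deviation of the members from their own means was lowest in the O. rufipogon leaf of plant 43, at -0.35 on the log2 scale, and highest in the O. nivara flowering panicle of plant 34, at 0.36. The leaf of plant 43 held the lowest value of 21 members and the flowering panicle of plant 34 the highest value of 17. With both libraries left out, an alternative chosen after seeing the data, the same rule kept 84 of the 100 members.

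The scaling of the libraries changed the set more than leaving out these 2 libraries did. Trimmed-mean scaling (TMM), which assumes that most genes do not change, raised the values of leaf libraries by 0.48 on the log2 scale relative to the deposited TPM, and moved those of heading and flowering panicles by -0.25 and -0.16. On the deposited scale the members' heading panicle minus leaf difference had a median of 0.12 and was positive in 67 of the 100. After TMM the median was -0.60 and 97 of the 100 were lower in heading panicles. The direction of the difference between panicle and leaf therefore flipped with the scaling.

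The scaling multiplies all genes of a library by the same factor, so it moved all genes by a like amount. Over the 13878 genes detected in every library, the median heading panicle minus leaf difference was 0.72 on the deposited scale and -0.0002 after TMM. For flowering panicle minus leaf, the members' median was 0.13 on the deposited scale and -0.51 after TMM, beside 0.63 and -0.02 for all those genes. Relative to the median gene, the members were thus lower in both panicle stages than in leaves. This holds under either scaling by construction, since a factor common to all genes cannot change it. Relative to the sum of all tags the members were nearly level. The other eligible genes also lay below the median gene on the deposited scale, at 0.38 for heading panicle minus leaf and 0.32 for flowering panicle minus leaf. Between the 2 panicle stages the members' median was 0.03 on the deposited scale and 0.12 after TMM.

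**Figure D3:**
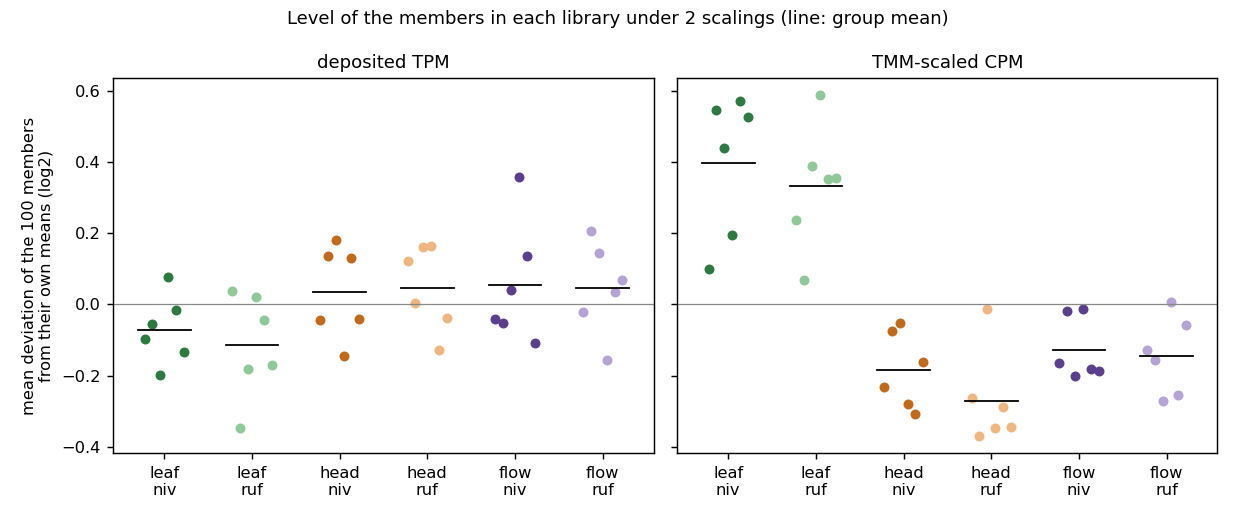
Mean log2 deviation of the 100 members from their own means in each of the 36 DGE libraries, on the deposited TPM scale (left) and after TMM scaling (right), with 1 point per library and the group mean as a line; group names as niv, ruf, head and flow. On the left the tissues overlap around 0, and on the right the 12 leaf libraries lie between 0.07 and 0.59, above all 24 panicle libraries.

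Applied to TMM-scaled values, the rule kept 33 of the 100 members, and with DESeq2's size factors it kept 36, of which 33 were common to all 3 scalings. On the TMM scale the members' median SD was 0.475, beside 0.812 in the other eligible genes, and 84 of the 100 lay in the lowest 25% of eligible genes. These are the same counts that chose the members, rescaled per library, and are a description. Over all 13 alternatives of the rule, which changed scaling, minimum, measure of spread or libraries, 7 members were chosen in 12 and none in all 13. A minimum of 50 TPM left only 271 eligible genes.

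These 7, named after their values were seen, were LOC_Os02g56180, LOC_Os08g24420, LOC_Os09g39980, LOC_Os02g54990, LOC_Os11g43970, LOC_Os03g63770 and LOC_Os06g35530. The first 3 missed the minimum of 50 TPM, the next 3 missed the choice from 2009 alone, and LOC_Os06g35530 missed the choice from 2010 alone. The 2 least different by tissue after TMM come first. LOC_Os02g54990 had TMM-scaled geometric means of 221.4, 188.5 and 196.9 CPM in leaves, heading and flowering panicles. LOC_Os06g35530 had 112.0, 107.0 and 95.1 CPM in the same order. On the deposited scale the leaves were the lowest tissue for both (80.4, 127.0 and 106.5 TPM for LOC_Os06g35530). LOC_Os09g39980 and LOC_Os11g43970 had TMM-scaled SDs of 0.34 and 0.359. Their TMM-scaled means in the same tissue order were 54.9, 40.1 and 45.8 CPM, and 213.1, 163.2 and 207.0 CPM. The other members of the 7 differed more between leaves and heading panicles. LOC_Os02g56180 had 95.5, 60.2 and 67.3 CPM, LOC_Os08g24420 63.1, 41.7 and 43.1 CPM, and LOC_Os03g63770 154.5, 98.2 and 124.2 CPM. After TMM each of the 7 was thus highest in leaves.

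Tests of the DGE counts used the same libraries that chose the members, so their counts are given beside the background and nothing is read from them. With edgeR's quasi-likelihood test and TMM scaling, genes with a Benjamini-Hochberg adjusted p under 0.05 over 20018 genes were called. For heading panicle minus leaf, 70 of the 100 members were called, all lower in the panicle, where 59.5% of all genes were called in either direction. For flowering panicle minus leaf, 63 were called, again all lower, beside 54.3% of all genes. The direction of these calls holds for TMM scaling; on the deposited scale 67 and 63 of the 100 members had the higher mean in heading and flowering panicles.

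Between the panicle stages 8 members were called, beside 22.9% of all genes. LOC_Os03g49150 was higher at flowering by 0.75 on the log2 scale (edgeR adjusted p = 0.001645), and LOC_Os01g05490 by 0.49 (edgeR adjusted p = 0.02381). LOC_Os08g09240 was lower at flowering, at -0.52 (edgeR adjusted p = 0.01552), and so was LOC_Os01g01040, also at -0.52 (edgeR adjusted p = 0.01205). In all, 5 of the 8 were higher and 3 lower at flowering. With the plant number as a replicate block, since plants gave several tissues, 0 members were called by edgeR, beside 8.34% of all genes, and 8 had an unadjusted p under 0.05, beside 22.3%.

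No member was called between the species in any tissue by edgeR. In leaves 0 of 100 were called, beside 1.25% of all genes, and 6 had an unadjusted p under 0.05, beside 15.7% of all genes. Panicles at heading had 0 called (0.45% of all genes) and 4 unadjusted (10.2%), and those at flowering 0 called (2.24%) and 7 unadjusted (19.7%). DESeq2 called 1, 0 and 0 members in leaves, heading and flowering panicles, beside 5.15%, 2.1% and 7.95% of all genes. The species by tissue interaction was called by edgeR in 3 of the 20018 genes (0.015%) and in 0 members; 3 members had an unadjusted p under 0.05, beside 8.49% of all genes.

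Between the years edgeR called 6 members in leaves, 4 in panicles at heading and 2 at flowering, beside 27.8%, 24.3% and 17.2% of all genes. LOC_Os01g13760 was higher in 2010 in flowering panicles by 1.08 on the log2 scale (edgeR adjusted p = 0.002234). LOC_Os10g42100 was lower in 2010 in leaves, at -0.99 (edgeR adjusted p = 0.008418). LOC_Os07g39630 was the member called in both leaves (0.63) and heading panicles (0.64), in each case higher in 2010. All of these are TMM-scaled differences.

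The 6 RNA-seq libraries gave a readout that the rule had not used, although from plants that it had. All 100 members were listed there, at mean values of 5.54 to 504 RPKM (reads scaled by gene length and library size), and with 1 library per species and tissue the values are described without a test. The SD of log2(RPKM + 1) over the 6 libraries had a median of 0.293 in the members, 0.545 in the 1191 other eligible genes listed and 0.792 in the 20820 genes with a mean of 1 RPKM or more. The highest and lowest libraries differed by over 2-fold in 28 of the 100 members, beside 70.8% of the other eligible genes and 83.8% of all those genes. By RNA-seq SD, 93 members lay in the lower 50% of eligible genes, 58 in the lowest 25% and 22 among the 100 smallest.

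In single pairs of RNA-seq libraries few members passed 2-fold on the log2(RPKM + 1) scale. Heading panicle minus leaf passed in 7 members in O. nivara and in 5 in O. rufipogon, beside 56.0% and 53.8% of all genes of 1 RPKM or more. Flowering panicle minus leaf passed in 2 and 9 members, beside 45.9% and 52.1%. Flowering minus heading panicle passed in 2 and 0 members, beside 26.0% and 20.3%. These counts lay below the share of all genes in every pair. The other eligible genes lay between the members and all genes. They passed in 42.4% and 41.0% for heading panicle minus leaf, and in 27.9% and 40.9% for flowering panicle minus leaf. For flowering minus heading panicle they passed in 15.6% and 12.8%.

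Between the species, 1 member passed 2-fold in leaves (13.9% of all genes), 0 in panicles at heading (19.6%) and 2 at flowering (22.2%). The other eligible genes passed in 7.56%, 7.56% and 9.15% in the same order. The members' median heading panicle minus leaf difference was 0.40 in O. nivara and 0.33 in O. rufipogon, beside 0.76 and 0.77 for all genes of 1 RPKM or more. The other eligible genes, at 0.37 and 0.43, were close to the members in this, so the smaller panicle values relative to all genes were not particular to the members. RPKM, like TPM, is a share of the library. Across the 1291 eligible genes listed in both assays, the DGE SD and the RNA-seq SD had a Spearman's rho of 0.596, as a description across genes.

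**Figure D4:**
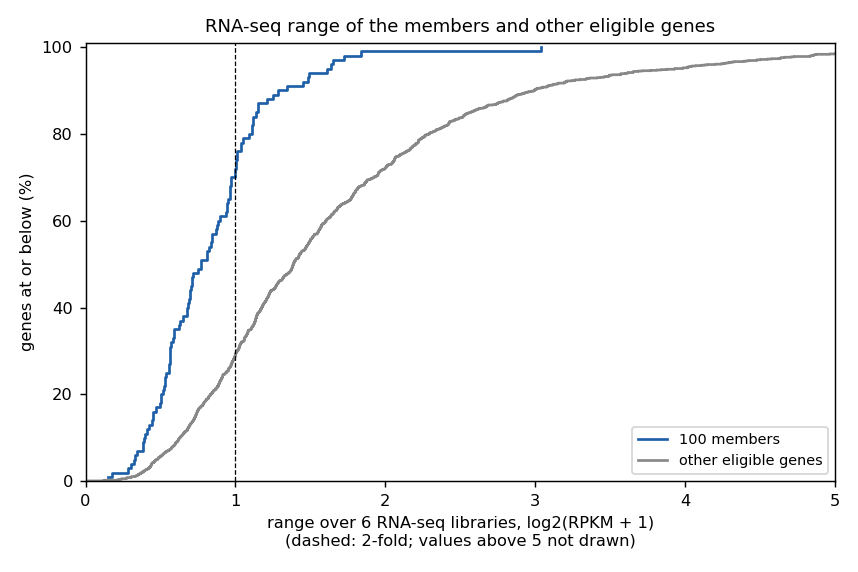
Cumulative share of genes (%) by the range of log2(RPKM + 1) over the 6 RNA-seq libraries, for the 100 members (blue) and the 1191 other eligible genes (grey); the dashed line marks 2-fold. The range passed 2-fold in 28 of the 100 members and in 70.8% of the others, and the blue line ends at 3.04.

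LOC_Os01g68040 had the smallest RNA-seq range of the members, 0.153 on the log2 scale. Its values were 27.5, 28.6 and 26.7 RPKM in O. nivara leaf, heading and flowering panicle, and 26.9, 29.8 and 28.0 RPKM in O. rufipogon. The DGE libraries of the same plant numbers held 57.7, 63.9 and 42.9 TPM in O. nivara and 46.9, 38.5 and 41.7 TPM in O. rufipogon. The RNA-seq values were nearly level, while the DGE values of the same samples were highest in the O. nivara heading panicle. All these samples were of 2009, and over all DGE libraries LOC_Os01g68040 had one of the widest year differences (48.8 TPM in 2009 and 32.3 in 2010). LOC_Os05g48960 (54.2 to 61.2 RPKM), LOC_Os10g19880 (14.5 to 17.9 RPKM), LOC_Os08g43360 (18.7 to 23.3 RPKM) and LOC_Os02g05700 (17.8 to 22.5 RPKM) followed.

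LOC_Os04g52479 was sixth of the 100 in DGE and had the largest RNA-seq range of all members, 3.04 on the log2 scale. In RNA-seq it stood at 1.89 RPKM in the O. nivara leaf and 4.70 in the O. rufipogon leaf, against 17.98 and 12.4 RPKM in heading and 15.2 and 22.7 RPKM in flowering panicles. The DGE libraries of the same plant numbers held 87.3 and 91.9 TPM in leaves, 72.5 and 60.2 in panicles at heading, and 60.4 and 69.6 at flowering, O. nivara first. The leaves were thus lowest in one assay and highest in the other, and over all DGE libraries the geometric means were 89.1, 67.4 and 69.1 TPM in leaves, heading and flowering panicles.

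Next by RNA-seq range were LOC_Os04g45650 (11.6 to 44.1 RPKM) and LOC_Os04g35570 (28.0 to 94.7 RPKM), both lowest in the O. rufipogon leaf and highest in the O. nivara heading panicle. LOC_Os01g43680 ran from 7.76 RPKM in the O. rufipogon leaf to 26.5 RPKM in the O. nivara flowering panicle. LOC_Os01g01040 ran from 6.30 RPKM in the O. nivara leaf to 21.7 RPKM in its heading panicle, and its DGE geometric means, at 29.6, 49.4 and 33.6 TPM in leaves, heading and flowering panicles, were also highest at heading.

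**Figure D5:**
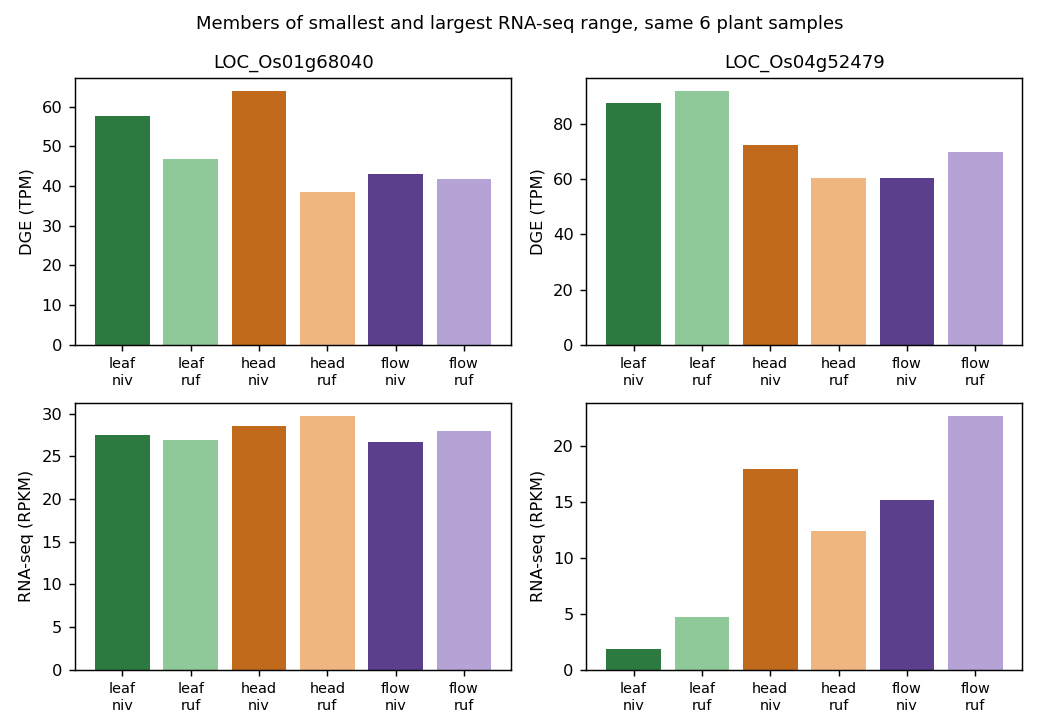
DGE (top, TPM) and RNA-seq (bottom, RPKM) values of LOC_Os01g68040 and LOC_Os04g52479 in the 6 samples with both assays, 1 library per bar with no replicate and axes from 0; niv, ruf, head and flow as before. LOC_Os01g68040 stays within 26.7 to 29.8 RPKM, while LOC_Os04g52479 is at 1.89 and 4.70 RPKM in leaves, where its DGE values of 87.3 and 91.9 TPM are the highest of the 6.

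The rule was also applied to 1 year and read in the other, whose libraries had then played no part in the choice. The 100 genes chosen from the 18 libraries of 2009 had a median SD of 0.356 in that year and 0.409 in 2010, where the other genes eligible in 2009 had 0.692. Of these 100, 72 lay in the lowest 25% of those genes in 2010 and 94 in the lower 50%. The 100 chosen in 2010 had a median SD of 0.284 in that year and 0.505 in 2009, beside 0.919 for the others, with 75 in the lowest 25% and 89 in the lower 50%.

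In both years 16 genes were among the 100, 16% of each list, and 13 of the 16 were members. The members were chosen from the libraries of both years, so this last count is a description. The lists were 100 of 1896 eligible genes in 2009 and 100 of 2409 in 2010. Of the genes chosen in 2009, 66 were still eligible in 2010, and of those chosen in 2010, 64 were eligible in 2009. The rest of each list could not recur. The members among the 16 that also had a rank of 10 or less were LOC_Os02g56180, LOC_Os08g24420, LOC_Os09g39980, LOC_Os03g46950, LOC_Os02g21880 and LOC_Os03g43760.

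None of 25 loci listed as common rice reference genes was a member. The list was put together from general knowledge of genes used in cultivated rice (actins, tubulins, ubiquitins and ubiquitin-conjugating enzymes, elongation and initiation factors, glyceraldehyde-3-phosphate dehydrogenases and others), and its locus numbers were not checked against an annotation. Of the 25, 22 were listed in DGE and 12 were eligible. The members were 100 of the 1298 eligible genes, so 0 of these 12 is close to that share. With a minimum of 50 TPM, 3 of the 25 loci were among the 100 chosen from 271 eligible genes. Under the other alternatives of the rule none was. The 12 had a median SD of 1.002, and 9 of them lay in the upper 50% of eligible genes by SD. In RNA-seq 23 of the 25 had a range over 2-fold, beside 83.8% of all genes of 1 RPKM or more and 70.8% of the other eligible genes. Their median SD was 0.724, beside 0.792 and 0.545 in the same order.

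The flattest of these loci were LOC_Os06g46770 (242nd of 1298, SD 0.565), LOC_Os11g06390 (247th, SD 0.566) and LOC_Os07g34589 (297th, SD 0.594). LOC_Os06g46770 ran from 1118 to 6242 TPM, with medians of 3632 TPM in leaves, 2665 in heading and 3395 in flowering panicles. At the other end, LOC_Os04g40950 (1221st) ran from 43.1 to 4587 TPM and LOC_Os07g38730 (1210th) from 25.2 to 1294 TPM, and both had their lowest tissue median in leaves (317.1 and 57.8 TPM).

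The 2 assays differed for LOC_Os01g22490, which was 1174th by DGE, from 30.2 to 945.8 TPM, and stayed within 229.3 to 373.3 RPKM in RNA-seq. LOC_Os07g34589 was also within 2-fold there, at 1054 to 1487 RPKM. The 3 loci of the list with no DGE value here were LOC_Os02g16040 (33.6 to 103.1 RPKM), LOC_Os03g08010 (42.6 to 109.7 RPKM) and LOC_Os03g08060 (88.2 to 200.8 RPKM). The list draws on gene families with near-identical copies, between which reads or tags may be shared, so single values of its loci are uncertain.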

How the data were processed

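For DGE the authors deposited raw tag counts and the same data as TPM, and for RNA-seq they deposited RPKM. DGE used NlaIII and MmeI tags, per the labels' protocols. The submitters' processing notes name BWA and edgeR 3.6.8; build and annotation: not given in the sources used here. Deposited TPM values multiplied by a library total gave back each count (largest deviation 2.04e-10), with 0.731 to 2.83% of counts outside the listed genes. RNA-seq depth is unknown. Intervals were not computed, and low counts limit precision by counting error only.

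Members were chosen as described, with no pseudocount. Members, reference and marker lists, and tests were chosen with earlier results of these data known. Counts were tested with edgeR 4.0.16 (R 4.3.3; quasi-likelihood, TMM, filterByExpr, robust) in 1 model of all libraries (6 group means, a year term per tissue), checked on simulated data. Within a tissue, p-values concern separate plants as far as the title numbers show. The tissue and interaction p-values of that model treated libraries of the same plant as independent, so they do not rest on separate plants. The alternatives were DESeq2 1.42.0, its size factors, no filter, 3 libraries left out and, because plants gave several tissues, a replicate block by plant number. Libraries of the same plant in other tissues correlated in their deviations at a median r of 0.454 (0.174 to 0.622, 26 pairs), against 0.192 (82 pairs) for other plants of the same species and year. RNA-seq was compared on log2(RPKM + 1) against genes with a mean of 1 RPKM or more.

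Named members were the 10 smallest SDs, 6 highest and 3 lowest levels, 5 widest tissue ranges, 3 widest species and 3 widest year differences, 5 smallest and 5 largest RNA-seq ranges, the limit genes and the reference loci. Members past an adjusted p or standing out in several settings were named after their values were seen. Gene classes planned from an annotation were not analysed here.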

Additional observations from a re-analysis of the deposited data

Results flagged for a closer look

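In 66 sets of 6 plants (the 10 flattest members and the members' mean deviation, each in 6 groups, on the log2 scale), 1 plant stood far from the other 5 in 2. LOC_Os02g21880 was at 254 TPM in the O. nivara flowering panicle of plant 34, where the other 5 plants held 95.5 to 137 TPM, and the gap was 0.635 of the whole log2 range. LOC_Os03g43760 was at 21.9 TPM in the O. rufipogon leaf of plant 49, where the other 5 held 36.2 to 46.7 TPM, a gap of 0.664 of the range. Chance marks about 1 in 20 such sets. Plant 34 was also the library in which the members stood highest on average. The species by tissue interaction test of edgeR called 0 members after adjustment, beside 0.015% of all genes. An unadjusted p under 0.05 was reached by 3 members, beside 8.49% of all genes. The members were chosen on the same libraries, so nothing is read from these counts.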

How the results depend on the processing

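The rule kept 33 of the 100 members after TMM scaling, 36 with DESeq2's size factors, 59 with a minimum of 10 TPM, 18 with a minimum of 50 TPM, 36 in 2009 alone, 39 in 2010 alone and 44 in panicles alone. A minimum of 50 TPM left 271 eligible genes, which limits that overlap by construction; the cause of the other changes was not tested. It kept 82 with the coefficient of variation, 72 with the median absolute deviation, 96 with counting variance subtracted, 89 without the heading panicle of plant 52 and the flowering panicles of plants 34 and 197, and 75 with libraries scaled to the eligible genes, an alternative added after seeing the data. DESeq2's test called 1 member between the species in leaves, where edgeR called 0. For the years it called 13, 8 and 9 members in leaves, heading and flowering panicles (32.5%, 30.2% and 22.8% of all genes), and edgeR without those 3 libraries called 1 in flowering panicles. With the paired fit (replicate block by plant) the tissue counts were 67 for heading panicle minus leaf (61.1% of all genes), 45 for flowering panicle minus leaf (47.5%) and 0 for flowering minus heading panicle (8.34%). Over all genes the block moved the last from 4591 to 1669. DESeq2 moved the species counts from 250 to 1031 in leaves, 90 to 421 in heading and 448 to 1591 in flowering panicles. Leaving out the 3 libraries gave 220 and 103 in the panicles, and 2250 in place of 3444 for the year in flowering panicles. Members past 2-fold in RNA-seq were 28, and 67 passed 1.5-fold; they were 33 with a pseudocount of 0.1, 28 without a filter and 19 with libraries scaled to the eligible genes, the last added after seeing the data. The lowest member count of 39 tags limits the precision of low members.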
